A study of Homo sapiens with 12 samples.

Results

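The comparison described here sets miR-30 against cel-miR-67, each transfected into H929. H929 is an established human multiple myeloma cell line, a tumour line of antibody-secreting plasma cells. The arrays were taken by their titles, 3 with miR-30 and 3 with cel-miR-67, which makes 6 of the 12 arrays of the series. The other 6 arrays, of cells carrying a short hairpin RNA against BCL9 or against green fluorescent protein, were not used. The control received cel-miR-67, a microRNA of the worm Caenorhabditis elegans. The labels name the treatment as miR-30, list members a to e of the family, and do not say whether they were given together, at which dose or for how long. Both groups therefore share the cell line and a transfection, and they differ in the microRNA given. Each array held 54675 probe sets, of which 41097 carried 1 gene symbol and stood for 19775 genes. Each gene was read by its brightest probe set over the 6 arrays, and 14273 genes lay above the 40th percentile of all probe sets, a level of 4.89 on the log2 intensity scale. The labels do not say whether the 3 arrays per group stem from separate cultures. All p-values therefore rest on the spread between the arrays alone, which may be technical.

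A microRNA guides Argonaute proteins to messenger RNAs that pair with its seed, the short stretch next to its 5′ end, and the paired messenger RNA is then less stable or less well translated. The miR-30 family is widely expressed, and its reported targets include BCL9, which helps beta-catenin to switch on Wnt genes, and the plasma cell regulator PRDM1. The mature forms that could be matched by name are shown because all of them share the same seed, printed in capitals at bases 2 to 8 (RefSeq, GRCh38.p14).
hsa-miR-30a-5p: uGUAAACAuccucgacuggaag
hsa-miR-30c-5p: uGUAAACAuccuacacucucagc
hsa-miR-30e-5p: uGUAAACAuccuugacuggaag
The 3 forms differ from each other only after the seed. The first is encoded at chr6:71403595-71403616 on the minus strand, the second at chr1:40757300-40757322 on the plus strand and again at chr6:71377003-71377025 on the minus strand, and the third at chr1:40754371-40754392 on the plus strand. The other human members, miR-30b-5p and miR-30d-5p, are named only.

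The arrays were alike in scale, with medians between 5.46 and 5.49. Across genes they correlated at 0.997 to 0.998 within a group and at 0.996 to 0.997 between groups, as a description. All 9 plasma cell markers were above the filter, at 9.83 to 14.02 in cel-miR-67 and 9.55 to 13.97 in miR-30, and NSD2 and FGFR3, the genes activated by the translocation known in this line, were at 11.1 and 8.62 in cel-miR-67. Of the markers of other cells, 3 of 5 for B cells, 2 of 6 for T and NK cells, 2 of 5 for myeloid cells, 2 of 2 for erythroid cells and 2 of 6 for stromal and epithelial cells were above the filter. In fuller lists of such markers, 52 of 59 genes were on the array and 29 passed the filter, beside 14273 of all 19775 genes. The highest was KRT18, a keratin gene of simple epithelia, at 9.18 in cel-miR-67 and 9.06 in miR-30, followed by BACH2, a B cell factor, at 7.79 and 8.18, and MS4A1, which defines mature B cells, was below the filter. The 18S ribosomal RNA probe sets read 12.50 ± 0.05 in cel-miR-67 and 12.64 ± 0.04 in miR-30 (SD, n = 3 each), without overlap (two-sided exact permutation p = 0.1, which is the smallest p possible with 3 arrays in each group). The poly-A spike-ins read 6.92 ± 0.06 and 6.78 ± 0.09 (exact permutation p = 0.2), and the 3′ minus 5′ difference of ACTB was 2.16 ± 0.09 and 2.07 ± 0.01 (exact permutation p = 0.4). These 18S and spike-in values stand beside every result below.

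BCL9 is the gene that the title of the series names as a target of miR-30. Its single probe set read 7.82, 7.86 and 7.79 in the cel-miR-67 arrays and 7.99, 8.05 and 7.83 in the miR-30 arrays. The groups overlapped, with miR-30 replicate 3 inside the range of the control arrays. The difference of 0.14 (SE 0.067, 95% interval -0.01 to 0.29) was not called (limma adjusted p = 0.272, exact permutation p = 0.2, two-sided). It was 0.093 without miR-30 replicate 2, 0.062 with the poly-A signal as a covariate and 0.25 with the 18S signal, and was called in none of these fits. The design text of the series associates miR-30 with lower BCL9 and with less proliferation. In these arrays the value of BCL9 RNA pointed the other way without being called, and the proliferation genes that changed mostly rose, as given below. The arrays do not read BCL9 protein or the transfected microRNA itself.

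Of 58 genes listed as reported miR-30 targets, 53 were on the array and 47 were tested. None was called lower and 2 were called higher, beside 1.88% of all genes called lower and 1.76% called higher (limma, Benjamini-Hochberg adjusted p under 0.05, the threshold for every call below). At an unadjusted p under 0.05, 4 targets were lower and 7 higher, and 3006 of all genes passed. The median difference of the targets was 0.012 against -0.019 over all genes tested. The 2 that rose were CCNE2, a cyclin that drives entry into S phase (0.41, adjusted p = 0.0107), and MBNL1, a splicing regulator (0.22, adjusted p = 0.0488). The lowest values belonged to NT5E, the surface enzyme CD73, which read 7.22, 7.40 and 7.14 in cel-miR-67 and 6.97, 6.98 and 6.91 in miR-30. Its difference was -0.30 and the groups did not overlap, but it was not called (adjusted p = 0.0572). MBNL2, a splicing regulator related to MBNL1, measured -0.28 (adjusted p = 0.0621), and STOX2 measured -0.19 (adjusted p = 0.0943). These 3 crossed the threshold under some other settings, which call 1 to 3 targets lower: 3 with a filter at the 60th percentile, 2 with array weights or with a trended and robust variance, and 1 in a fit of all 12 arrays (NT5E) or with the replicate number as a block (MBNL2, adjusted p = 0.0467). MBNL1 was not called with the block (adjusted p = 0.0661). Of the 25 genes of the microRNA machinery, among them the Argonaute and TNRC6 genes, 0 were called in limma (1 higher and 1 lower at an unadjusted p under 0.05), and their differences ran from -0.18 to 0.18.

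Over all genes, 520 of 14273 were called (3.64%), 251 higher and 269 lower in miR-30. The arrays of the groups were without overlap in each of the 520, as they were in 3809 of all genes (26.7%). The changes were small. In the raised genes the median difference was 0.34, 25 rose at least 1.5-fold and 0 rose 2-fold. In the lowered genes the median was -0.32, 9 fell at least 1.5-fold and 1, NRXN3, fell at least 2-fold. The balance of directions moved with the scaling: 48.3% of calls were higher with the deposited values, 60.2% after a further quantile normalization (315 higher, 208 lower) and 38.2% with arrays centred on their medians (215 higher, 348 lower). Under both of these scalings all 520 genes kept their direction.

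The number of calls rested on having all 6 arrays. Without cel-miR-67 replicate 1, 2 or 3 the counts were 104, 94 and 91 higher and 92, 40 and 59 lower. Without miR-30 replicate 1, 2 or 3 they were 114, 53 and 107 higher and 101, 17 and 64 lower. All 520 genes kept their direction in all of these fits, which had to follow because their groups did not overlap. Of them 51 raised and 14 lowered genes were called in each of the 6. When the 18S or the poly-A signal entered the fit as a covariate, 0 genes passed (893 and 2073 at an unadjusted p under 0.05), and with the ACTB difference 44 were called. With each covariate all 520 kept their direction, and the median ratio of their difference to that without it was 1.00 to 1.01. This ratio was 1.02 to 1.06 in the raised proliferation genes and 0.93 to 1.04 in the lowered interferon genes. The median standard error rose 1.35-fold with ACTB, 1.45-fold with poly-A and 2.27-fold with 18S. The covariates correlated with the group at -0.64 (ACTB), -0.74 (poly-A) and 0.87 (18S), so these fits separate covariate and group poorly.

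**Figure D1:**
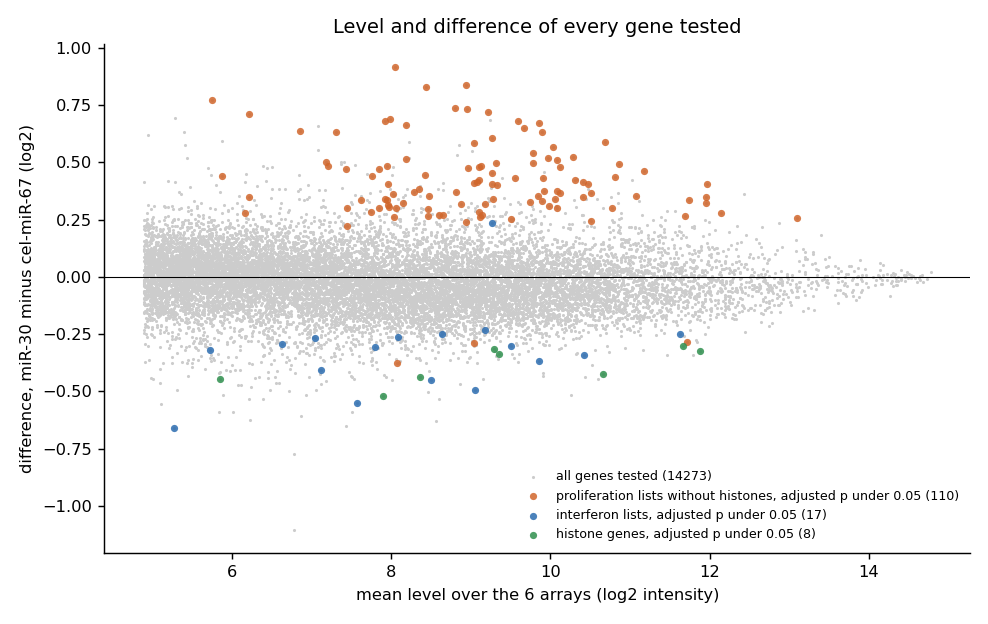
Each point is 1 of 14273 genes, with its mean level over the 6 arrays (log2 intensity) on the horizontal axis and its difference, miR-30 minus cel-miR-67 (log2), on the vertical axis. Coloured points are called members of the proliferation lists without histones (110, of which 107 lie above 0), the interferon lists (17, of which 16 lie below 0) and the histone list (8, all below 0).

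Genes of cell proliferation made up 42.6% of the raised genes. Of the 251 raised genes 129 belonged to no list (51.4%, against 92.5% of all genes tested). All gene lists were chosen with earlier results of these data known, so the shares here and below describe the lists and test nothing. Before division a cell passes from G1 into S phase, where DNA is copied from licensed origins, and then through G2 into mitosis, where kinases, spindle motors and kinetochores separate the chromosomes. E2F factors drive the S phase genes, while B-MYB and FOXM1 drive the genes of G2 and mitosis. Over all proliferation lists, 107 of 297 tested genes were called higher (36.0%, against 1.76% of all genes) and 11 lower (3.70%, against 1.88%). The 11 lowered genes were 8 histone genes, LIN37, CCND1 and CDKN1A. Without the histone list 238 of 275 genes had a positive difference, and the median of these 275 was 0.21. In 173 of the 297 genes all miR-30 arrays lay above all cel-miR-67 arrays (10.1% of all genes did so). The count of 107 fell to 60, 57 and 51 without cel-miR-67 replicate 1, 2 or 3, and to 70, 38 and 61 without miR-30 replicate 1, 2 or 3. In each of these 6 fits the same 37 proliferation genes were called higher.

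Among the transcription factors, 6 of 22 rose and 1 fell, with a median of 0.12. E2F8, an atypical E2F that represses other E2F targets, read 7.58, 7.68 and 7.49 in cel-miR-67 and 8.40, 8.57 and 8.53 in miR-30. The lowest miR-30 array lay well above the highest control array. The difference of 0.92 (SE 0.071), a 1.89-fold rise, was the highest of all genes (adjusted p = 0.000977). E2F7, its close relative, rose by 0.68 on its brightest probe set (adjusted p = 0.000977), while its other probe set differed in sign and the mean of both was 0.33. MYB, a proto-oncogene of blood cell progenitors, read 5.65, 6.01 and 5.92 against 6.52, 6.60 and 6.60, a rise of 0.71 (adjusted p = 0.00633). FOXM1 rose by 0.44 (adjusted p = 0.0159), MYBL1 by 0.35 (0.0348) and MYBL2, which encodes B-MYB, by 0.27 (0.043). The activating factor E2F1 measured 0.14 and was not called (adjusted p = 0.328). With the replicate number as a block MYBL2 was not called (adjusted p = 0.0598). LIN37, a subunit of the repressive DREAM complex, fell by 0.38 (adjusted p = 0.0199), although its probe sets differed in sign and the plain one alone gave 0.16.

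Around the G1/S boundary 5 of 20 genes rose and 2 fell, with a median of 0.025. The raised genes were the cyclins CCNE1 (0.33), CCNE2 (0.41) and CCNA2 (0.51), the phosphatase gene CDC25A (0.47), which activates CDK2, and FBXO5 (0.61), an inhibitor of the anaphase-promoting complex. CDC25A read 7.54, 7.66 and 7.65 in cel-miR-67 and 8.07, 8.08 and 8.10 in miR-30, without overlap, and was called in each fit that left out 1 array (adjusted p = 0.00551). The lowered genes were CCND1, a D-type cyclin and Wnt target, and CDKN1A, which encodes the CDK inhibitor p21 and is a p53 target. CCND1 read 9.14, 9.18 and 9.21 against 8.82, 8.90 and 8.95 (-0.29, adjusted p = 0.0319). CDKN1A read 11.84, 11.82 and 11.93 against 11.62, 11.49 and 11.62 (-0.29, adjusted p = 0.0417). Neither set of arrays overlapped, but both genes lost their call without any 1 of the 6 arrays.

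Of 87 genes of DNA replication and recombination 21 rose and 0 fell. In origin licensing and the MCM helicase 9 of 26 rose and 0 fell, with a median of 0.18. TICRR, which helps to load CDC45 at origins, read 6.45, 6.53 and 6.63 in cel-miR-67 and 7.19, 7.14 and 7.19 in miR-30 (0.64, adjusted p = 0.0024). The helicase subunit MCM6 was abundant and tight, at 11.56, 11.59 and 11.55 against 11.88, 11.93 and 11.91 (0.34, adjusted p = 0.0126). The arrays of both genes were fully separated, and TICRR alone of this list was called in all 6 fits that left out an array. MCM3 (0.25), MCM4 (0.27), MCM10 (0.30), ORC6 (0.37), CDC45 (0.30), CDC7 (0.30) and its activator DBF4 (0.43) completed the raised genes, with 1 of 5 probe sets of MCM4 differing in sign. At the fork and in nucleotide synthesis 5 of 38 rose, with a median of 0.15: POLD3 (0.34) and POLE2 (0.34) of the replicative polymerases, PRIM1 of the primase (0.25), the checkpoint adaptor CLSPN (0.28) and UHRF1 (0.26), which maintains DNA methylation. The probe sets of POLD3 differed in sign. In homologous recombination and the Fanconi pathway 7 of 23 rose, with a median of 0.22. BRIP1, a helicase that binds BRCA1, rose by 0.50 (adjusted p = 0.0112), PSMC3IP by 0.38, POLQ by 0.37, BARD1 by 0.34, FANCI by 0.33, BRCA1 by 0.27 and FANCL by 0.27. With the replicate number as a block 9 of these genes were not called, with adjusted p-values from 0.052 for MCM3 to 0.0726 for POLE2: MCM3, MCM4, CDC45, POLD3, POLE2, PRIM1, UHRF1, BRCA1 and FANCL.

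Most of the 107 raised proliferation genes stood in the mitotic lists. In the 5 lists from mitotic kinases to cytokinesis 75 of 146 genes were called higher (51.4%) and 0 lower, and the median was 0.28. In the lists of transcription, G1/S, replication and repair 32 of 129 were called higher (24.8%) and the median was 0.15. The difference between these shares was not tested.

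Of the mitotic cyclins, kinases and phosphatases 19 of 25 rose, with a median of 0.35, and 9 of them were called in every fit that left out 1 array. CDC25C, the phosphatase that activates CDK1 at mitotic entry, read 8.52, 8.60 and 8.63 in cel-miR-67 and 9.39, 9.25 and 9.30 in miR-30 (0.73, 1.66-fold, adjusted p = 0.000977). CCNB1, the cyclin partner of CDK1, read 10.56, 10.66 and 10.63 against 11.07, 11.08 and 11.17 (0.49, 1.41-fold, adjusted p = 0.00482). Neither gene had overlapping arrays. AURKA (0.46), AURKB (0.44), PLK1 (0.35), PLK4 (0.37), NEK2 (0.48), TTK (0.48) and BUB1 (0.35) encode kinases of spindle assembly and its checkpoint, and BORA (0.48) and TPX2 (0.42) encode partners of Aurora A. WEE1 (0.50) and PKMYT1 (0.29), which inhibit CDK1, rose as well. PLK1 and PKMYT1 were not called with the replicate block (adjusted p = 0.0523 and 0.0629). CDK1 itself measured 0.12 and was not called (adjusted p = 0.402), with a 95% interval of -0.05 to 0.29.

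Kinesins and spindle proteins had the highest median of all lists, 0.40, with 22 of 31 called higher. KIF20A, a motor of the central spindle, read 8.42, 8.57 and 8.57 in cel-miR-67 and 9.36, 9.31 and 9.41 in miR-30 (0.84, 1.79-fold, adjusted p = 0.000977). The miR-30 arrays all lay above the control arrays. GAS2L3 (0.83), KIF14 (0.74), KIF23 (0.72), FAM83D (0.69), CKAP2L (0.66), PSRC1 (0.63), ASPM (0.59) and CENPE (0.57) followed, which encode motors and other proteins of the spindle, the midbody or the kinetochore. KIF11 (0.45), the motor that pushes the spindle poles apart, KIF2C (0.43), which depolymerises microtubules, and KIF18B (0.48) were also called in all 6 fits that left out an array.

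At the centromere and kinetochore 14 of 38 rose, with a median of 0.21. HJURP, the chaperone that deposits the centromeric histone CENPA, read 9.48, 9.54 and 9.55 in cel-miR-67 and 10.19, 10.18 and 10.22 in miR-30 (0.67, SE 0.052, adjusted p = 0.000977). Its arrays were tight within each group and did not overlap. CENPF (0.65), CENPA (0.52), CENPI (0.44), KNL1 (0.41) and NDC80 (0.37) are kinetochore proteins, BUB1B (0.52) acts in the spindle checkpoint, and CDCA8 (0.54) and BIRC5 (0.34) belong to the chromosomal passenger complex. Of chromosome structure and separation 10 of 26 rose, with a median of 0.24 and no negative difference in the list. MKI67, the marker of cycling cells known as Ki-67, read 9.79, 9.70 and 9.63 against 10.34, 10.20 and 10.14 (0.52, adjusted p = 0.0091), and the groups were separate. LMNB1 of the nuclear lamina (0.50), CDCA5, which protects cohesion (0.42), the securin gene PTTG1 (0.40), the condensin genes NCAPG (0.35) and NCAPH (0.30), TOP2A (0.28) and the separase gene ESPL1 (0.28) rose with it. PTTG1 has a close copy, PTTG3P, so its probe set may read both. In cytokinesis and mitotic exit 11 of 27 rose, among them ARHGAP11A (0.77), DEPDC1 (0.68), CDC20 (0.63), which activates the anaphase-promoting complex, ANLN (0.59), RACGAP1 (0.42) and ECT2 (0.40).

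**Figure D2:**
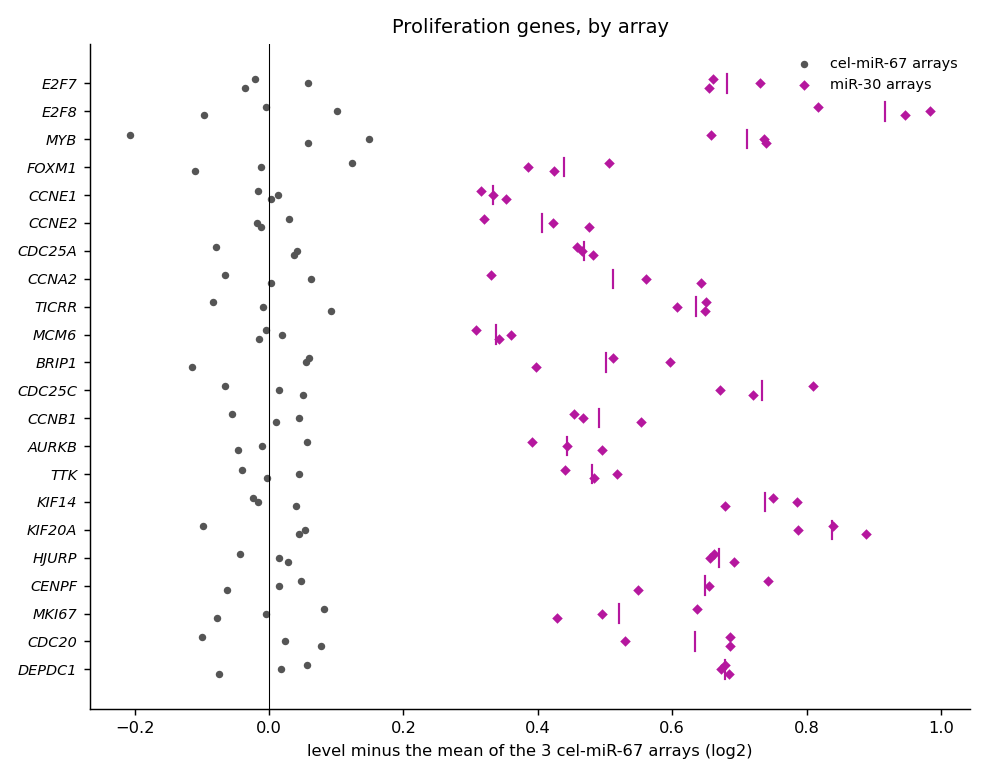
For 22 proliferation genes, ordered from transcription factors to mitotic exit, each point is 1 array, plotted as its level minus the mean of the 3 cel-miR-67 arrays (log2); bars mark the mean of the 3 miR-30 arrays. All miR-30 arrays of each gene lie to the right of its cel-miR-67 arrays, as in every raised gene, from CCNE1 (0.33) to E2F8 (0.92).

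The array values of histone genes went the other way. Most of these genes are transcribed in S phase and give messages without a poly-A tail. How far the 3′ in vitro transcription labelling reads such messages was not tested. Of 22 genes tested in the histone list, 8 fell, 0 rose and 19 had a negative difference. The median was -0.24 (36.4% called lower, against 1.88% of all genes). The list also holds SLBP, which is not itself a histone gene and was not called. H4C8 read 8.04, 8.25 and 8.19 in cel-miR-67 and 7.54, 7.64 and 7.73 in miR-30 (-0.52, adjusted p = 0.01). H2BC5 read 10.81, 10.85 and 10.96 against 10.40, 10.45 and 10.50 (-0.43, adjusted p = 0.0107). In neither gene did the groups overlap. Of 7 genes of histone H2B 6 fell: H2BC4 (-0.45), H2BC5, H2BC6 (-0.34), H2BC9 (-0.44), H2BC12 (-0.30) and H2BC21 (-0.31). The linker histone gene H1-2 fell by 0.33 (adjusted p = 0.0318). Histone genes have near-identical copies, and 4 of the 8 were read by probe sets marked as shared or cross-hybridising, so single genes are uncertain. None of the 8 was called in all 6 fits that left out an array. The poly-A spike-in and 18S values given above moved with the groups, and their part in these falls was not tested. H2AX, a variant histone gene outside the list and chosen here after its value was seen, rose by 0.43 (adjusted p = 0.00963), with 1 of its 4 probe sets of opposite sign.

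Promoters are printed because many of the raised genes moved together and motifs of cell cycle promoters are well known. Windows from 250 bases before to 50 bases after the start (RefSeq, GRCh38.p14) were matched by symbol for 8209 of the tested genes, those with a single window. The motifs searched on both strands were the cell cycle homology region (CHR, TTTGAA), the box CCAAT, the E2F site (TTTGGCGC or TTTCCCGC) and the interferon-stimulated response element (ISRE, GAAA, any 2 bases and GAAA). A CHR and an ISRE match can share letters. CHR letters were found in 37 of 54 raised genes of the mitosis and division lists (68.5%), in 19 of 42 genes of these lists that were not called (45.2%) and in 9.86% of all promoters. Both CHR and CCAAT were in 53.7% of these raised genes, in 28.6% of the genes of these lists not called and in 4.47% of all promoters. CCAAT, with or without CHR, was in 68.5% of the raised genes, 66.7% of those not called and 37.5% of all promoters. Of the raised promoters with CHR letters, 28 of 37 (75.7%) held them within 50 bases of the start, against 237 of 809 (29.3%) of all promoters with them. Positions were not counted for the genes of these lists not called. E2F letters were in 5 of 18 raised genes of replication, repair and G1/S (27.8%) and in 3.52% of all promoters. They were not counted for the genes of these lists not called. In the mitosis and division lists E2F letters were in 5.56% of raised genes and 14.3% of those not called. A match describes letters in a window and no binding was measured.

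In the following promoters CHR and CCAAT matches are in capitals, all on the minus strand of the genome and printed 5′ to 3′ along the gene. DEPDC1 lies at chr1:68497033-68497332 and KIF14 at chr1:200620702-200621001.
DEPDC1: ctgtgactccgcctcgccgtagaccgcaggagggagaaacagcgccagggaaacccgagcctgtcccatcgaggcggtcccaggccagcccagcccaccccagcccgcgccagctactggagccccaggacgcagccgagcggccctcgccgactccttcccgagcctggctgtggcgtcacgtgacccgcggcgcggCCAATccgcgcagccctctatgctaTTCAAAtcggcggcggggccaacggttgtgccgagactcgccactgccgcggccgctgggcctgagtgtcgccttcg
KIF14: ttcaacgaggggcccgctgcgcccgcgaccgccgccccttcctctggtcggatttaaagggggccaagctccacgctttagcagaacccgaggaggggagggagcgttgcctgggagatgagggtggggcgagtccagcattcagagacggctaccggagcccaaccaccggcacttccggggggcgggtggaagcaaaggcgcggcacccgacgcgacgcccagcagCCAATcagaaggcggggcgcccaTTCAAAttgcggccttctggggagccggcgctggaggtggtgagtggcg
DEPDC1 holds CCAAT letters from position -52 and CHR letters, read from the other strand, from -27, counted from the start. KIF14 holds them from -22 and from 2. The next promoters have E2F matches in capitals. CDC25A lies at chr3:48188368-48188667 and MCM6 at chr2:135876394-135876693, both on the minus strand.
CDC25A: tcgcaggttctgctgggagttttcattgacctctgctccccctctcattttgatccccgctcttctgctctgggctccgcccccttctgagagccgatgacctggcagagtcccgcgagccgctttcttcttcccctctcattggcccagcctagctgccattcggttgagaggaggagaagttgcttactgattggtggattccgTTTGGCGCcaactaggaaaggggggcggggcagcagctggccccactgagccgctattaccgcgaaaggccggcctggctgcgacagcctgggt
MCM6: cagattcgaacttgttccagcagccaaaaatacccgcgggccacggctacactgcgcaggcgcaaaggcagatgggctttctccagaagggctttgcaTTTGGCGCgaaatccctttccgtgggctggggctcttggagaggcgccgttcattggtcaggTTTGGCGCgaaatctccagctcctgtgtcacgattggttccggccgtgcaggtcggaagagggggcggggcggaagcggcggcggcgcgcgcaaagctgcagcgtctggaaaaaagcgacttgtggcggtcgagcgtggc
CDC25A has 1 match, from -44, and MCM6 has 2, from -152 and -90.

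Most interferon genes were not called, and those that were called mostly fell. Interferons bind surface receptors, JAK kinases then activate STAT proteins, and these enter the nucleus with IRF9 and switch on antiviral effector genes. Of 113 interferon genes tested 16 fell (14.2%, against 1.88% of all genes) and 1 rose (0.885%, against 1.76%). The median was -0.099 and 84 had a negative difference. In 54 of the 113 genes all miR-30 arrays lay below all cel-miR-67 arrays (16.6% of all genes did so). The count of 16 fell to 6, 5 and 8 without cel-miR-67 replicate 1, 2 or 3 and to 7, 4 and 6 without miR-30 replicate 1, 2 or 3. In all 6 of these fits the same 3 genes were called, IFI27, IFIT1 and MX1.

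Upstream in the pathway few genes were called. Of 19 ligand, receptor and JAK-STAT genes 2 fell and 1 rose, with a median of 0.037. IRF9, the DNA-binding partner of the STAT complex of type I interferon, read 10.56, 10.58 and 10.64 in cel-miR-67 and 10.28, 10.21 and 10.25 in miR-30, without overlap (-0.34, adjusted p = 0.0138). STAT3, best known in myeloma for signalling by interleukin 6, fell by 0.30 (adjusted p = 0.0233). IFNLR1, the receptor of type III interferons, rose by 0.23 (adjusted p = 0.0471). In the sensing of RNA and DNA 2 of 17 fell, IRF7 (-0.31, adjusted p = 0.0387), the factor that amplifies interferon production, and the Toll-like receptor adaptor MYD88 (-0.23, adjusted p = 0.0469). IFNLR1, IRF7 and MYD88 were not called with the replicate block (adjusted p = 0.0607, 0.0542 and 0.0607).

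Of 30 antiviral effectors 8 fell and 0 rose, with a median of -0.16, and in 17 the arrays of the groups lay fully apart downwards. IFIT1, which binds viral RNA caps, read 5.56, 5.65 and 5.58 in cel-miR-67 and 5.04, 5.01 and 4.75 in miR-30, close to the filter level of 4.89 (-0.66, adjusted p = 0.00592). MX1, a GTPase that blocks viral nucleocapsids, read 8.71, 8.73 and 8.73 against 8.32, 8.21 and 8.29 (-0.45, adjusted p = 0.00551). IFI27 read 7.81, 7.79 and 7.95 against 7.37, 7.22 and 7.30 (-0.55, adjusted p = 0.00592). None of these 3 genes had overlapping arrays. The membrane protein gene IFITM1 (-0.37), EPSTI1 (-0.41), MX2 (-0.32), OAS1, which senses double-stranded RNA (-0.26), and the exonuclease gene ISG20 (-0.25) completed the falls. XAF1 read 7.41, 7.32 and 6.78 in cel-miR-67 and 6.51, 6.64 and 6.54 in miR-30. Its difference of -0.61 was large, but cel-miR-67 replicate 3 stood near the miR-30 arrays and the gene was not called (adjusted p = 0.0523). ISG15 measured -0.29 and was not called (adjusted p = 0.0647; 0.0481 with the replicate block). OAS1 and ISG20 were not called with that block (adjusted p = 0.0551 and 0.0578).

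Of the ubiquitin-like and PARP enzymes 3 of 16 fell: ZC3HAV1, the zinc finger antiviral protein (-0.49, adjusted p = 0.0112), the antibody receptor and ubiquitin ligase gene TRIM21 (-0.27) and DTX3L (-0.29). Among guanylate-binding proteins and genes of interferon gamma 1 of 12 fell, APOL2 (-0.25), whose other probe set differed in sign. With the replicate block DTX3L and APOL2 were not called (adjusted p = 0.0713 and 0.0541). In MHC class I and antigen processing 0 of 19 were called in limma (3 lower at an unadjusted p under 0.05), with a median of -0.099 and a range from -0.22 to 0.12. HLA-B measured -0.12 (95% interval -0.24 to -0.01) and B2M -0.04 (95% interval -0.15 to 0.07).

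The ISRE letters were in 7 of 11 lowered interferon genes with a promoter window (63.6%), in 35 of 61 tested interferon genes (57.4%) and in 2.69% of all promoters. The share in the lowered genes was thus close to that of the interferon lists as a whole. Both promoters shown hold 2 matches, in capitals, and lie on the plus strand, IFIT1 at chr10:89392373-89392672 and IFITM1 at chr11:313790-314089.
IFIT1: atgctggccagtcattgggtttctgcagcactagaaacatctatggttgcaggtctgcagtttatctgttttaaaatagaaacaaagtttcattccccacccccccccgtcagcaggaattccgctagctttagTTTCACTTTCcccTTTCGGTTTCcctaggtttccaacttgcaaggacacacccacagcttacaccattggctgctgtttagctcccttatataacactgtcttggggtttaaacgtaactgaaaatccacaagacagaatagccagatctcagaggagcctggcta
IFITM1: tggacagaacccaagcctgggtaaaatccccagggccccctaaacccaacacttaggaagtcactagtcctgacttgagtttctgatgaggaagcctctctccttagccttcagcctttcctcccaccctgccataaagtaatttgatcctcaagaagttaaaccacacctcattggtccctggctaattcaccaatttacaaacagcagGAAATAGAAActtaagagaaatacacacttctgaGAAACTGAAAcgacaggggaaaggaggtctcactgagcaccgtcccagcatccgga
In IFIT1 the matches begin at -116 and -103 and in IFITM1 at -40 and -6.

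**Figure D3:**
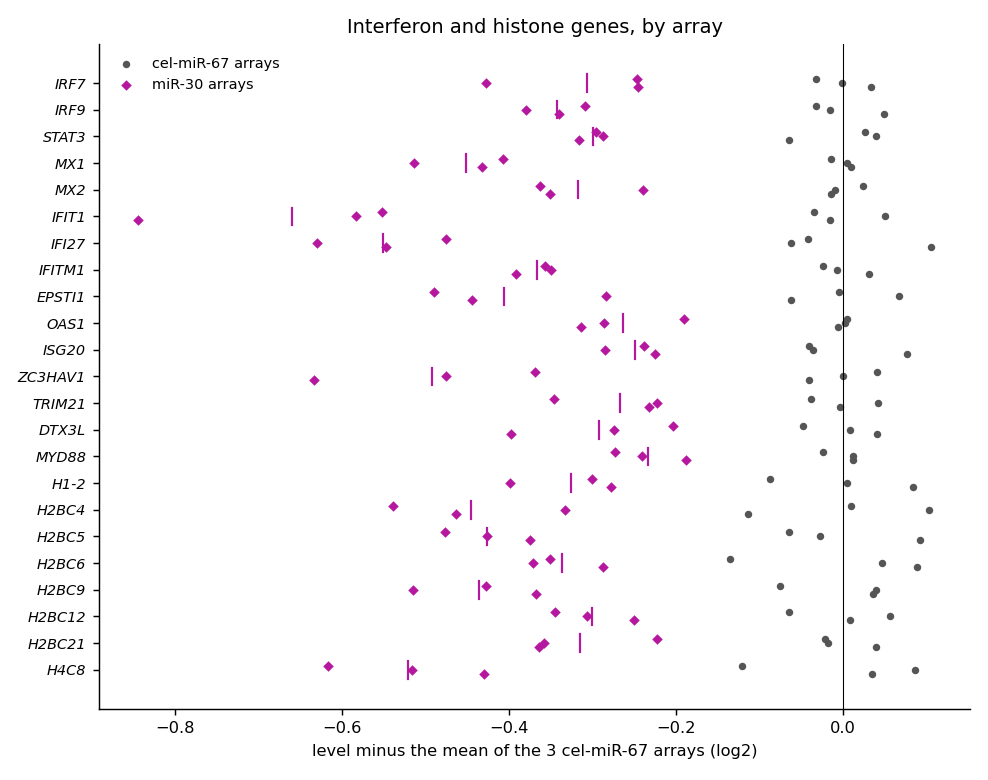
For 15 interferon genes and the 8 lowered histone genes, each point is 1 array, plotted as its level minus the mean of the 3 cel-miR-67 arrays (log2); bars mark the mean of the 3 miR-30 arrays. All miR-30 arrays lie to the left of the cel-miR-67 arrays, as in every lowered gene, and the lowest point is an IFIT1 array of miR-30.

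Of the 269 lowered genes, 226 belonged to no list (84.0%, against 92.5% of all genes tested). The 25 largest falls ran from -1.10 to -0.47. NRXN3, a neuronal cell adhesion gene, read 7.20, 7.50 and 7.28 in cel-miR-67 and 6.46, 6.34 and 5.87 in miR-30. No array overlapped, and its fall of 1.10 on the log2 scale (SE 0.143, 2.15-fold, adjusted p = 0.00733) was the deepest of all genes, though the mean of its 3 probe sets was -0.69. The neuronal genes MAP2, which binds microtubules (-0.59), CNTN4, an axonal adhesion molecule (-0.52), and the calcium-stimulated adenylyl cyclase ADCY1 (-0.63) were also among the 25. ADCY1 had 1 of 3 probe sets of opposite sign, near the filter level.

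Of 28 epidermal and cornified envelope genes on the array 15 passed the filter, at 5.08 to 12.09 in cel-miR-67. Of these 15 genes 3 fell (20.0%, against 1.88% of all genes). The list was chosen with earlier results of these data known, so this share is a description only. CSTA, a protease inhibitor, read 7.69, 7.86 and 7.72 in cel-miR-67 and 6.90, 7.11 and 7.31 in miR-30 (-0.65, adjusted p = 0.0126). SPRR2C read 6.87, 7.38 and 7.26 against 6.31, 6.44 and 6.44 (-0.77, adjusted p = 0.0126). In both the groups were apart. SPRR2B fell by 0.35 (adjusted p = 0.0331; 0.0578 with the replicate block), and since the SPRR2 genes are near-identical their probe sets may read each other.

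Among caveolar, membrane and adhesion genes 5 of 39 fell (12.8%, against 1.88% of all genes) and 1 rose (2.56%, against 1.76%). AOC3, a surface amine oxidase that supports leukocyte adhesion, read 6.55, 6.54 and 6.52 in cel-miR-67 and 6.06, 5.79 and 5.90 in miR-30, without overlap (-0.62, adjusted p = 0.0048). Its relative AOC2 fell by 0.47 (adjusted p = 0.0406). CAV2 of the caveolae (-0.59), the chemokine receptor CCR1 (-0.39), E-cadherin CDH1 (-0.34) and the annexin gene ANXA1 (-0.28) fell. CXCR4, the receptor that holds plasma cells in bone marrow, rose by 0.48 (adjusted p = 0.01). Its level was low, at 5.45 in cel-miR-67 and 5.93 in miR-30, beside the filter level of 4.89. The heparan sulphate proteoglycan gene SDC2 fell by 0.47 (adjusted p = 0.0172).

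Further lowered genes stood in no list and are given singly. CARD16, a caspase recruitment domain gene, read 6.67, 6.68 and 6.62 in cel-miR-67 and 6.04, 6.14 and 6.18 in miR-30 (-0.54, adjusted p = 0.00355). CASP1, the inflammatory caspase that CARD16 resembles and inhibits, read 8.07, 8.14 and 8.22 against 7.70, 7.75 and 7.67 (-0.44, adjusted p = 0.00884), and none of its 5 probe sets differed in sign. The groups were separate in both, and probe sets of these related genes may read each other. TNFRSF10D, a decoy receptor of TRAIL, fell by 0.50 (adjusted p = 0.0158) and IL17RA by 0.40 (adjusted p = 0.00733). LAMP3, a lysosomal membrane protein that interferon induces in many cells, read 8.82, 8.86 and 8.90 against 8.33, 8.36 and 8.30, fully apart (-0.53, adjusted p = 0.00269). CBX6, a Polycomb protein gene, fell by 0.52, LDLRAD4, an inhibitor of TGF-beta signalling, by 0.59, RHOU by 0.53 and the lysosomal sulphatase gene ARSB by 0.50. The 14 genes called lower in each fit that left out an array were NRXN3, IFIT1, ADCY1, AOC3, LDLRAD4, MAP2, IFI27, CARD16, LAMP3, CBX6, MX1, CASP1, IL17RA and SPRING1. IL17RA had 1 of 4 probe sets of opposite sign, and SPRING1, which fell by 0.43, had 3 of 4. CASP1, IL17RA and SPRING1 were chosen after their values were seen. Of 21 NF-kappaB targets and cytokines 0 were called lower in limma (1 at an unadjusted p under 0.05). REL, an NF-kappaB subunit, rose by 0.35 (adjusted p = 0.0336). Of 27 apoptosis genes 0 were called. REL lost its call without cel-miR-67 replicate 2 or 3 and without any 1 of the miR-30 arrays (adjusted p = 0.0777 to 0.109).

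**Figure D4:**
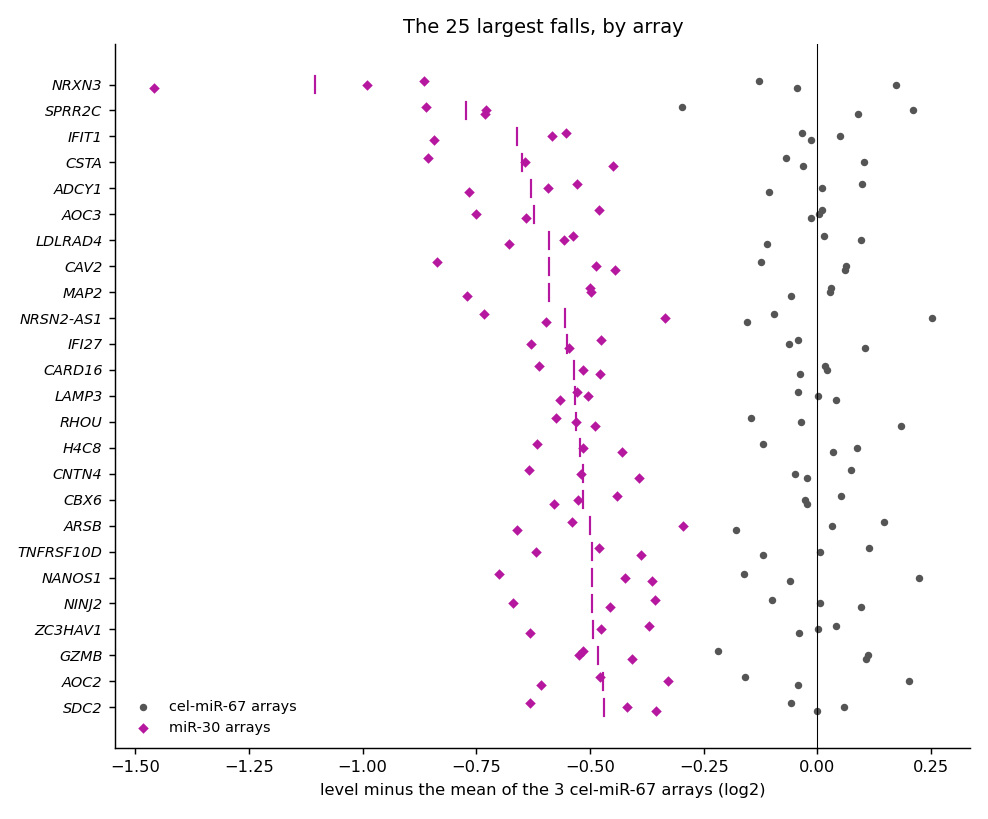
For the 25 called genes with the largest falls, each point is 1 array, plotted as its level minus the mean of the 3 cel-miR-67 arrays (log2); bars mark the mean of the 3 miR-30 arrays. All miR-30 arrays lie to the left of the control arrays of the same gene, which the choice required and all 269 lowered genes met. Falls run from SDC2 (-0.47) to NRXN3 (-1.10), where the miR-30 arrays spread most.

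The lysosome and autophagy list had 1 called gene of 38 (2.63% lower, against 1.88% of all genes). It was the autophagy receptor gene SQSTM1 (-0.25, adjusted p = 0.0467, and 0.0607 with the replicate block), with 2 of 4 probe sets of opposite sign. In 33 of the 38 the difference was negative, the median was -0.12, and in 16 all miR-30 arrays lay below the controls (16.6% of all genes did so). Of 26 p53 target genes 2 fell (7.69%, against 1.88% of all genes), CDKN1A and ZMAT3 (-0.30, adjusted p = 0.0356). In this list 0 rose, and the median was -0.066. Of 23 FOXO and quiescence-linked genes CCNG2 (0.46, adjusted p = 0.00701) and KLF2 (0.32, adjusted p = 0.0217) rose (8.70%, against 1.76% of all genes). TXNIP fell by 0.28 (adjusted p = 0.0346, and 0.0555 with the replicate block), which is 4.35% of the list, against 1.88%. Of 27 plasma cell identity genes 1 was called lower (3.70%, against 1.88% of all genes), the surface ectoenzyme gene CD38. It read 9.81, 9.82 and 9.87 in cel-miR-67 and 9.60, 9.48 and 9.55 in miR-30 (-0.29, adjusted p = 0.0308). Of 22 cyclic AMP and phosphodiesterase genes ADCY1 fell (4.55%, against 1.88% of all genes). PDE7A rose by 0.27 (4.55% of the list, against 1.76%, adjusted p = 0.0329), with 1 of its 5 probe sets of opposite sign. Of 33 Wnt targets and components 1 was called lower (3.03%, against 1.88% of all genes), CCND1. The differences in this list ran from -0.29 to 0.26. In limma 0 genes were called among 24 genes of ABC transporters and xenobiotic metabolism (8 at an unadjusted p under 0.05), 11 MHC class II genes (1) and 29 TGF-beta genes (5).

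**Figure D5:**
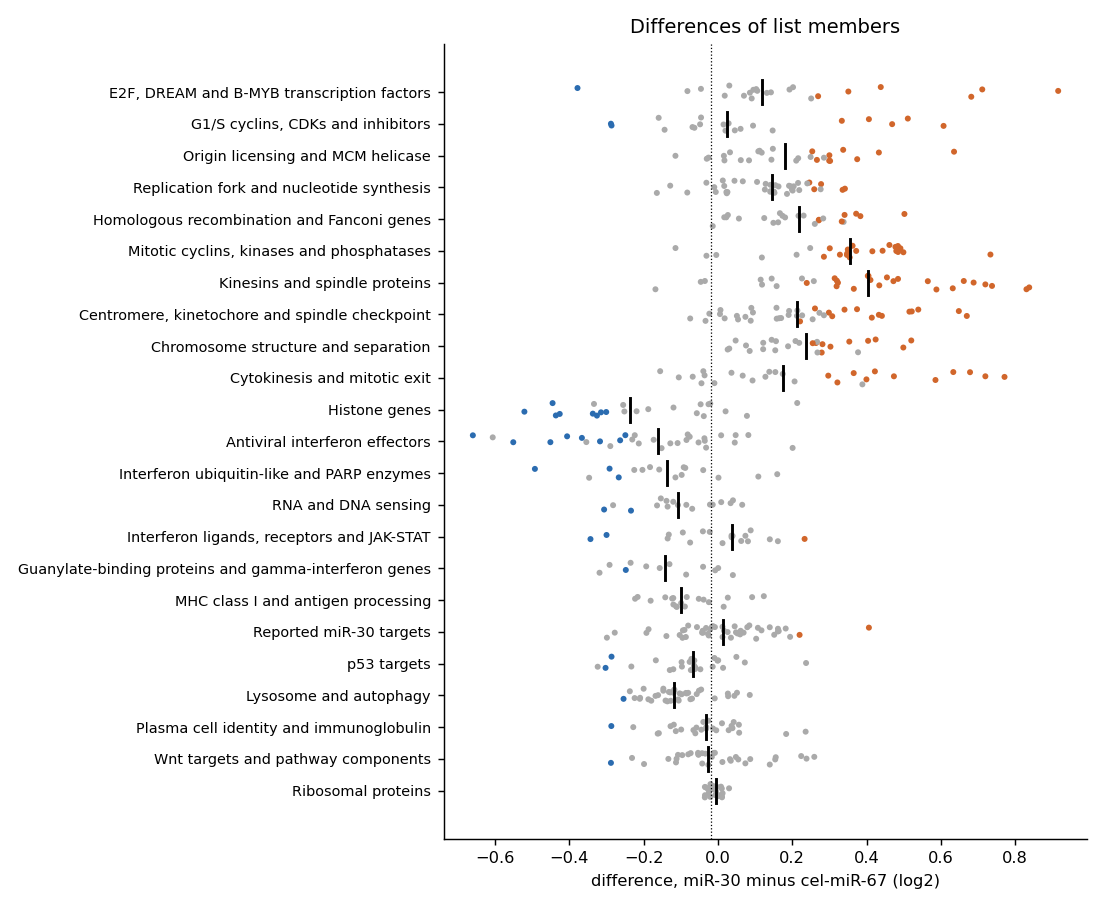
Each point is 1 tested gene of the named list, with its difference, miR-30 minus cel-miR-67 (log2), on the horizontal axis; called genes are orange (higher) or blue (lower), black bars are list medians, and the dotted line is the median of all genes (-0.019). Medians run from 0.40 for kinesins and spindle proteins to -0.24 for the histone list.

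Of 28 immediate early and MAP kinase feedback genes 3 rose (10.7%, against 1.76% of all genes). EGR1, a transcription factor induced by growth signals, read 8.71, 8.57 and 8.39 in cel-miR-67 and 9.26, 9.13 and 9.01 in miR-30, without overlap (0.58, adjusted p = 0.0158). JUN rose by 0.38 (adjusted p = 0.0367) and SPRY1, a feedback inhibitor of MAP kinase signalling, by 0.38 (adjusted p = 0.0367), the latter with probe sets that differed in sign. ARID5B, a chromatin regulator, rose by 0.59 (adjusted p = 0.00269) and SESTD1 by 0.60 (adjusted p = 0.0326). CDCA2 (0.68), CDCA3 (0.53), GPSM2 (0.52) and TRIP13 (0.41), which act in mitosis but stood in no list, were raised too, and CDCA3, GPSM2 and TRIP13 were chosen after their values were seen. MYC measured 0.24 and was not called (adjusted p = 0.115). Its antagonist MXD1 fell by 0.29 on its brightest probe set (adjusted p = 0.025). The other probe sets of MXD1 measured only -0.0096 and -0.018.

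Housekeeping programmes gave few calls. In limma 0 genes were called among 24 ribosomal protein genes (0 also at an unadjusted p under 0.05). Likewise 0 were called among 36 genes of oxidative phosphorylation (4 lower at an unadjusted p under 0.05), 27 proteasome genes (5 lower), 27 genes of the unfolded protein response (5 lower), 29 ATF4 targets (2 lower) and 27 apoptosis genes (1 higher, 4 lower). Ribosomal protein genes lay within -0.035 to 0.03, a narrower range than any other list in these arrays. Of 29 hypoxia and glycolysis genes PDK1 rose by 0.32 (adjusted p = 0.0488, and 0.0541 with the replicate block) and BNIP3 fell by 0.35 (adjusted p = 0.0199). Each is 3.45% of the list, against 1.76% of all genes higher and 1.88% lower. STARD4, a sterol carrier, rose by 0.31 (adjusted p = 0.0221) and the chaperone gene HSPH1 by 0.30 (adjusted p = 0.0467). Of the marker lists of other cells, BACH2 (0.38) and KRT8 (0.30) rose, GZMB (-0.48) and CDH1 (-0.34) fell, and the remaining 25 of 29 tested genes were not called.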

How the data were processed

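Per the submitters' processing notes, RMA and affy (no versions given) were used for these arrays, and the table deposited by the authors holds log2 intensities, 1 value per probe set and array. Per the labels' protocols, Trizol RNA was biotin-labelled by 3′ in vitro transcription. Genes were named from the platform annotation, without the 1801 probe sets with several symbols and the 11777 listed with no gene; 41043 gene IDs matched the table of current names, which changed 0 symbols. In any pair of the 6 arrays, 36 to 70 values were equal at all digits. There is no read depth on an array, and precision is limited by the number of arrays.

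A mean per group was fitted to the 6 arrays in limma 3.58.1 (lmFit and eBayes, R 4.3.3), and Benjamini-Hochberg adjustment ran over all 14273 genes. The fit was tested on simulated data. Exact permutation tests were two-sided. Figures used matplotlib 3.10.9. The main fit did not pair the arrays, and the replicate number entered only as a block in an alternative fit. Deviations from the group means correlated at 0.13, 0.10 and 0.24 in the same-numbered pairs, each above 0.1. A differently numbered pair, cel-miR-67 replicate 1 with miR-30 replicate 2, also reached 0.13, so the pairing is weak. The comparison and the 47 gene lists were chosen with earlier results of these data known. The rule for named genes took BCL9 and, each way, the 25 largest called changes whose groups did not overlap. It also took up to 6 called members per list and direction, up to 4 others of high level, and the E2F, IRF and STAT families. Not all of these are printed. Of 172 genes given with a value 38 lie outside this rule and were chosen after their values were seen: 26 further called members of lists, 5 members that were not called (NT5E, MBNL2, STOX2, XAF1 and MYC) and 7 genes of no list. Alternatives were other filters, probe set rules, scalings, variance models, a replicate block, a stricter threshold, quality covariates and leaving out each array.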

Additional observations from a re-analysis of the deposited data

How the results depend on the processing

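The counts of calls depended on the settings more than the directions did. With no filter 127 genes were called higher and 80 lower (61.4% higher), of them 7 interferon genes lower. With plain probe sets only, the counts were 167 and 168, with 66 proliferation genes higher and 9 interferon genes lower. With a trended and robust variance they were 468 and 773 (37.7% higher), with 31 interferon genes lower and 2 miR-30 targets lower. The genes called lower were 544 with a filter at the 60th percentile, 428 in a fit of all 12 arrays and 435 with array weights, with 3, 1 and 2 miR-30 targets among them. At an adjusted p under 0.01, 53 were higher and 16 lower (76.8% higher), with 37 proliferation genes and 3 interferon genes. With the ACTB covariate 37 were higher and 7 lower (84.1% higher), with 23 proliferation genes and 1 interferon gene, and with the poly-A or the 18S covariate 0 genes were called in all of these counts. Leaving out each array in turn gave 53 to 114 higher, 17 to 101 lower, 38 to 70 proliferation genes, 4 to 8 interferon genes, 0 miR-30 targets, and 0.093 to 0.20 for BCL9. With the poly-A and 18S covariates BCL9 was 0.062 and 0.25. It stayed positive and not called under every setting run, with an adjusted p of 0.135 to 0.858. With the replicate block 212 genes were higher and 214 lower, 89 proliferation and 12 interferon genes were called, and 1 miR-30 target was lower; beside the genes named above, the block changed no call of a gene given with its value. Of the genes given with a value, LIN37 (0.16) and SQSTM1 (0.0035) changed sign, both with plain probe sets, and no other gene did under any setting run.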
